A study of Homo sapiens with 12 samples.

Results

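The 6 genes of the aryl hydrocarbon receptor axis described here are AHR, AHRR, ARNT, CYP1A1, CYP1B1 and TIPARP, taken by symbol from a table of 19973 genes. RNA was sequenced from H460 and A549, human non-small cell lung carcinoma (NSCLC) lines that the labels give as WT in genotype. The study states, however, that both lines carry homozygous inactivating mutations of KEAP1. In each line, non-treated cells were compared with cells given 10 µM ISP-I, whose treatment lasted 48 h. ISP-I is isovalerylspiramycin I, a macrolide component of the antibiotic mixture carrimycin. There were 3 libraries in each of the 4 groups and 12 in all, and the question was which transcripts differ after ISP-I. The compound was dissolved in DMSO, and it is not stated whether the non-treated cells received DMSO. Each line is a single culture model, and it is not stated whether the libraries of a group came from separate cultures, so p values measure only the spread between these libraries.

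AHR is a transcription factor that waits in the cytoplasm with chaperones and moves to the nucleus when a small aromatic ligand binds. There it pairs with ARNT and binds DNA at a short core motif near its target genes, among them CYP1A1 and CYP1B1, monooxygenases that break down many of its ligands. AHRR and TIPARP are also target genes, and their proteins act back on the receptor: AHRR competes for ARNT and DNA, and TIPARP, an ADP-ribosyltransferase, promotes the loss of AHR protein. In the lung the axis is best known for its response to compounds of cigarette smoke.

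Matches to the core of the motif that the AHR-ARNT pair binds are shown, because target genes are known to share that motif. Sequence outside the windows given below was not searched. GCGTG, the 5-base core of the motif, was searched on both strands, so that CACGC marks the same core on the other strand. The windows searched were those of RefSeq on GRCh38.p14, which run from 250 bases before to 50 bases after a gene start. They existed for 5 of the 6 genes, 8 windows in all, and the matches are printed 5′ to 3′ on the strand of the gene, with up to 10 bases on each side and the core in capitals.
AHR, chr7:17298679-17298701, + strand, core starting at base 38 after the start: tgttccgagaGCGTGccccggac
AHRR, chr5:321674-321698, + strand, core starting 30 bases before the first start: cgggcggctcGCGTGccggggtggg
AHRR, chr5:322360-322377, + strand, core starting 247 bases before the second start: ggcGCGTGacaggcaggg
AHRR, chr5:322558-322582, + strand, core starting 42 bases before the second start: agaagggtggGCGTGtgcgcgcgtt
CYP1A1, chr15:74725571-74725595, - strand, core starting 57 bases before the start: agggaaggagGCGTGgccacacgta
TIPARP, chr3:156674372-156674396, + strand, core starting 208 bases before the first start: cgagaaaggaCACGCcccctcgcgg
TIPARP, chr3:156674438-156674462, + strand, core starting 142 bases before the first start: aacgaacgcgCACGCgcgcgcaggg

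AHR, CYP1A1 and the first AHRR window held 1 match each, and the second AHRR window and the first TIPARP window held 2. The single ARNT window and the other TIPARP windows held none of these letters. Of all 35116 windows of 300 bases, 36.5% held at least 1 match and 12.7% at least 2, so a single match is common. A match is only a run of letters and was not tested as a binding site. CYP1B1 had no window.

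Between 14225849 and 17874422 reads were assigned to genes per library. Within groups, library 3 of the H460 ISP-I group and library 3 of the A549 control group stood farthest from their replicates (chi-square per degree of freedom over gene counts of 54.4 and 92.0, and of 26.7 and 30.8), and the closest pair of any group differed by 2.95, so no library was a repeat of another. Counts of lists and families below are therefore also given without these libraries where they changed. KRT8, KRT18 and KRT19, keratins of epithelial cells, were abundant in both lines, at mean levels of 45.6 to 649.9 FPKM (fragments per kilobase of gene, scaled by the reads of the library). EPCAM and CDH1, epithelial surface proteins, were present in A549 controls at 1.91 and 4.90 FPKM, while the H460 controls held 5 and 0 reads in sum. After ISP-I, 4 of the 5 epithelial markers were lower in A549, among them CDH1, which fell to 0.756 FPKM (-1.75 on the log2 scale of FPKM + 1), and KRT8, which fell from 649.9 to 323.6 FPKM, and in H460 1 of the 3 tested was higher (KRT18) and 1 lower (KRT19). The part of this in the members' changes was not tested. The lung lineage markers NKX2-1, SFTPA1, SFTPB and SFTPC did not exceed a group mean of 0.267 FPKM. Of the blood, endothelial and fibroblast markers, COL1A1 reached 0.764 to 1.19 FPKM and the other 4 (PTPRC, PECAM1, COL1A2 and DCN) at most 0.0206 FPKM. In bulk libraries a change in every cell and a change in the mixture of cells cannot be told apart, nor can fewer cells of a kind and less RNA per cell.

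ISP-I was followed by higher AHR, AHRR, CYP1A1 and TIPARP mRNA in both lines, and the rises of AHR, CYP1A1 and TIPARP were larger in H460 than in A549. That of AHRR was larger in the test on log2(FPKM + 1) but not on recovered reads, and its A549 rise depended on the library left out. CYP1A1 stood out in size, with mean levels 108.3 times the control level in H460 and 49.1 times in A549. ARNT and CYP1B1 passed the test in neither line. In limma's test, with Benjamini-Hochberg adjustment over all genes, 4 of 6 members had an adjusted p under 0.05 with a higher level in H460, where 27.6% of all 13423 genes tested were higher, and 0 were lower, where 41.5% of genes were. AHRR, which passed the filter on low values only through the treated groups, is among the 4 in both lines, so the counts are a description of the members and no support for them. In A549 the counts were again 4 higher and 0 lower, against 30.5% and 27% of 13705 genes. With a fold over 2 on the log2(FPKM + 1) scale as well, 3 members were called higher in H460 (AHR, CYP1A1 and TIPARP), where the share of all genes was 10.5%, and 1 in A549 (CYP1A1), where it was 4.2%. The A549 count was 3 with a pseudocount of 0.1 and in limma voom on the recovered reads, and 2 without control library 1 or ISP-I library 2. None was called lower at that fold in H460 or A549, against 15.2% and 3.51% of all genes. In the fits within each line, none was lower in limma at an unadjusted p under 0.05 or in limma voom on the recovered reads. With all 12 libraries in the limma fit, ARNT was lower in H460 (-0.26, limma adjusted p = 0.0463). The median difference of the 6 members was 1.23 in H460 and 0.57 in A549 on that scale, and that of all genes was -0.15 and 0.02.

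**Figure D1:**
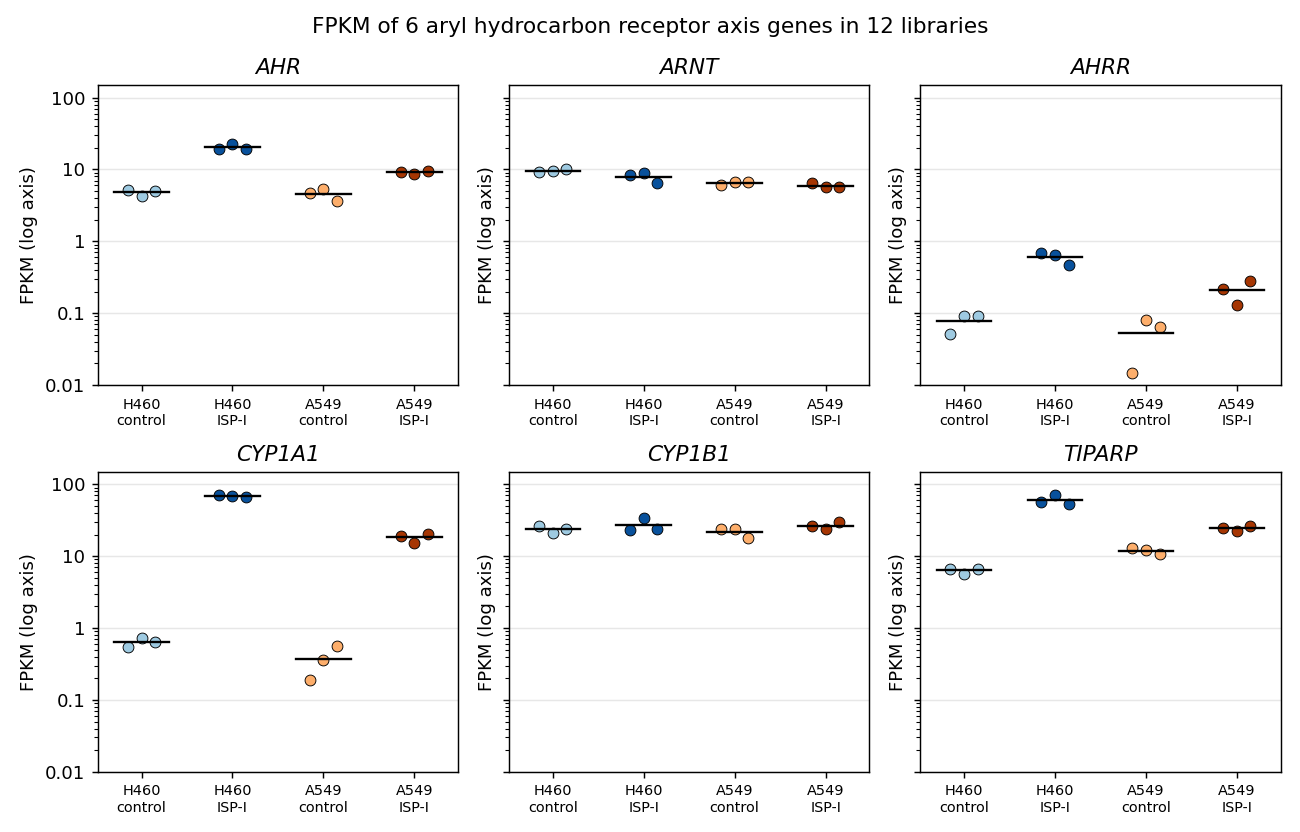
Level of each gene in each of the 12 libraries, in FPKM on a log axis that all panels share, by group. Points are libraries, in no order, and the horizontal lines are group means. CYP1A1 in H460 goes from 0.634 to 68.6 FPKM on average, while the points of ARNT and CYP1B1 stay between 5.66 and 34.2 FPKM.

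AHR, the receptor (ENSG00000106546, hg38 chr7:16916359-17346152, + strand), was measured at 5.21, 4.2 and 5.01 FPKM in the H460 controls and at 19.4, 22.9 and 19.5 FPKM after ISP-I. In the A549 controls it was at 4.78, 5.38 and 3.69 FPKM, and after ISP-I at 9.13, 8.69 and 9.59 FPKM. The treated libraries lay above every control library in both lines. The mean rose from 4.81 ± 0.531 to 20.6 ± 2.0 FPKM in H460 (SD, n = 3 each), a ratio of 4.29, and from 4.62 ± 0.856 to 9.13 ± 0.450 FPKM in A549, a ratio of 1.98. On the log2(FPKM + 1) scale the difference was 1.90 in H460 (SE 0.124, limma adjusted p = 3.58e-06) and 0.86 in A549 (SE 0.116, limma adjusted p = 0.000375). The controls of the lines were alike in level (difference H460 minus A549 0.06, 95% interval -0.20 to 0.31, limma adjusted p = 0.719). After ISP-I, AHR was 2.26 times as high in H460 as in A549, a difference of 1.09 (limma adjusted p = 3.89e-06).

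ARNT, the nuclear partner that AHR shares with the hypoxia factors (ENSG00000143437, hg38 chr1:150809713-150876708, - strand), was at 9.25, 9.55 and 10.2 FPKM in the H460 controls and at 8.35, 9.06 and 6.51 FPKM after ISP-I. In A549 it was at 6.03, 6.59 and 6.80 FPKM in controls and at 6.4, 5.66 and 5.75 FPKM after ISP-I. The H460 groups did not overlap, with 9.06 and 9.25 FPKM as nearest values, and the A549 groups did. The difference was -0.26 in H460 (95% interval -0.57 to 0.05, limma adjusted p = 0.117) and -0.11 in A549 (-0.29 to 0.08, limma adjusted p = 0.283). Under another scaling of the libraries, by the median of gene ratios, the H460 difference was 0.00 (limma adjusted p = 0.985), and with all 12 libraries in the fit it was -0.26 and passed (limma adjusted p = 0.0463), so no direction is given for ARNT. What did differ was the line: ARNT was 1.49 times as high in H460 as in A549 controls (difference 0.51, limma adjusted p = 0.00125) and 1.34 times as high after ISP-I (0.36, limma adjusted p = 0.00874).

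AHRR, the repressor (ENSG00000063438, hg38 chr5:321759-438291, + strand), was the least abundant member. It was at 0.0516, 0.0907 and 0.0925 FPKM in the H460 controls (7, 13 and 13 reads) and at 0.682, 0.636 and 0.471 FPKM after ISP-I (115, 100 and 66 reads). In A549 it was at 0.0149, 0.0793 and 0.0646 FPKM in controls (2, 11 and 9 reads) and at 0.220, 0.128 and 0.281 FPKM after ISP-I (31, 19 and 38 reads). Every treated library exceeded every control of its line. The mean level rose 7.62 times in H460 and 3.96 times in A549, and AHRR passed the filter of 0.1 FPKM only through the treated groups. Because a pseudocount of 1 draws such low values together, the difference on the log2(FPKM + 1) scale was only 0.56 in H460 (SE 0.070, limma adjusted p = 0.000135) and 0.20 in A549 (SE 0.063, limma adjusted p = 0.0262). The A549 call was lost when any of 3 libraries was left out, with a limma adjusted p of 0.0858 without control library 1 and of 0.0703 and 0.0837 without the first or the third treated library. PDCD6-AHRR, a readthrough transcript over the same exons, held 0 to 2 reads per library. How reads on the shared exons were assigned is not given, so the counts of both genes may be too low.

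CYP1A1, the classical target (ENSG00000140465, hg38 chr15:74719542-74725536, - strand), was near the floor in controls. In H460 controls it was at 0.538, 0.725 and 0.639 FPKM (26, 37 and 32 reads), and after ISP-I at 70.4, 68.8 and 66.7 FPKM (4228, 3853 and 3326 reads). In A549 controls it was at 0.188, 0.364 and 0.564 FPKM (9, 18 and 28 reads), and after ISP-I at 19.2, 15.4 and 20.2 FPKM (966, 814 and 973 reads). The treated libraries of each line lay close together, far above all 6 controls. The difference on the log2(FPKM + 1) scale was 5.41 in H460 (SE 0.105, limma adjusted p = 3.51e-08) and 3.81 in A549 (SE 0.133, limma adjusted p = 5.65e-07). By size of rise CYP1A1 was gene 10 of 13423 in H460 and gene 7 of 13705 in A549. The controls of the lines overlapped (difference 0.26, 95% interval 0.0039 to 0.51, limma adjusted p = 0.0771), and after ISP-I the H460 mean was 3.75 times the A549 mean (difference 1.86, limma adjusted p = 2.36e-08). CYP1A2, the close copy beside CYP1A1, had 0 reads in all control libraries, 11 reads in sum in the treated H460 libraries and 31 in the treated A549 libraries.

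CYP1B1, the other CYP1 target (ENSG00000138061, hg38 chr2:38066973-38109902, - strand), was already abundant without treatment. In H460 it was at 26.2, 20.8 and 23.8 FPKM in controls and at 23.5, 34.2 and 23.9 FPKM after ISP-I, with overlap. In A549 it was at 23.6, 23.7 and 17.8 FPKM in controls and at 26.2, 24.0 and 29.6 FPKM after ISP-I, without overlap. The treated mean was 1.15 times the control mean in H460 (difference 0.18, 95% interval -0.20 to 0.57, limma adjusted p = 0.351) and 1.23 times in A549 (0.29, 0.0040 to 0.57, limma adjusted p = 0.0767). With scaling by the median of gene ratios, the H460 difference was 0.46 and passed (limma adjusted p = 0.0311). RMDN2, which overlaps CYP1B1 on the opposite strand, held 19 to 65 reads per library, and the strand setting of the counting is not given. On the scale of the deposited values the untreated CYP1B1 level was 37.2 times that of CYP1A1 in H460 and 58.3 times in A549, and after ISP-I CYP1A1 was the higher of these genes in H460 and CYP1B1 in A549.

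TIPARP (ENSG00000163659, hg38 chr3:156673235-156706770, + strand) was at 6.59, 5.72 and 6.71 FPKM in the H460 controls and at 56.8, 70.1 and 52.8 FPKM after ISP-I. In A549 it was at 12.9, 12.03 and 10.8 FPKM in controls and at 24.5, 22.1 and 26.6 FPKM after ISP-I. No treated library overlapped a control library of its line. The mean rose from 6.34 ± 0.541 to 59.9 ± 9.05 FPKM in H460 (SD, n = 3 each), a ratio of 9.45, and from 11.9 ± 1.06 to 24.4 ± 2.26 FPKM in A549, a ratio of 2.06. The differences on the log2(FPKM + 1) scale were 3.04 (SE 0.137, limma adjusted p = 7.24e-07) and 0.98 (SE 0.093, limma adjusted p = 5.65e-05). TIPARP was the one member whose lines changed places: H460 controls had 0.534 times the A549 level (difference -0.81, limma adjusted p = 6.92e-05), and treated H460 had 2.45 times the treated A549 level (1.25, limma adjusted p = 9.00e-07).

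Because the lines were compared through their own controls, the difference between the responses was tested as the interaction of line and treatment over all 12 libraries. The H460 response exceeded the A549 response for TIPARP by 2.06 on the log2(FPKM + 1) scale (SE 0.165, limma adjusted p = 1.07e-06), for CYP1A1 by 1.60 (SE 0.166, 8.04e-06), for AHR by 1.03 (SE 0.168, 0.000268) and for AHRR by 0.37 (SE 0.089, 0.00443). These were 4 of 6 members higher, where 18.6% of 13953 genes were higher, and 3 of 6 with a difference over 1, where 5.93% were. In the other direction there were 0 members at any size and 0 past 1, against 34.7% and 10.1% of genes. AHRR, among the 4 higher, passed the filter on low values only through the treated groups. The counts are therefore a description of the members and no support for them. The AHRR difference was not passed on recovered reads, where limma voom gave 0.83 (adjusted p = 0.335). For ARNT the difference of responses was -0.15 (95% interval -0.48 to 0.18, limma adjusted p = 0.419) and for CYP1B1 -0.10 (-0.59 to 0.38, limma adjusted p = 0.714), which leaves room for differences of either sign.

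**Figure D2:**
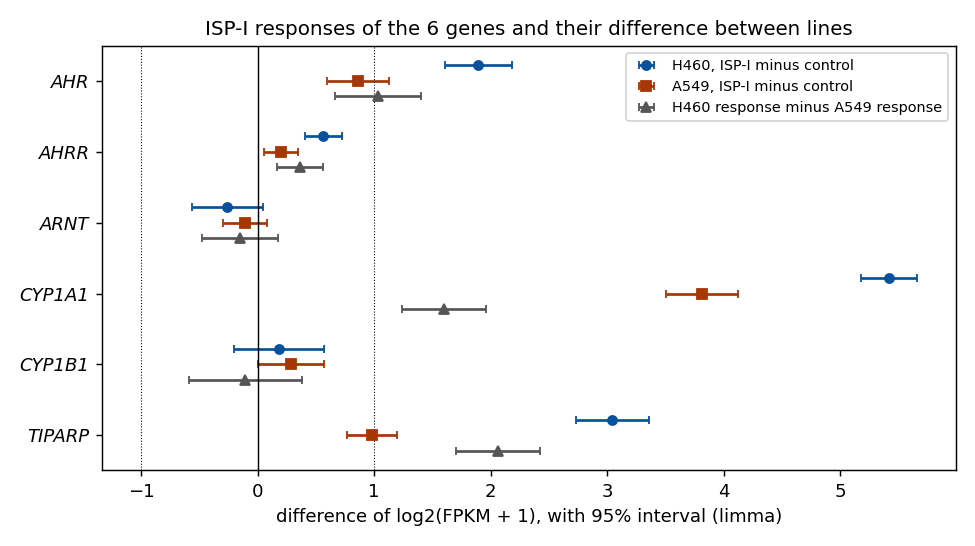
Difference of log2(FPKM + 1) with its 95% interval from limma, for H460 (circles), A549 (squares) and the H460 minus A549 response (triangles). Dotted lines mark 1 and -1. The H460 circle lies to the right of the A549 square for AHR, AHRR, CYP1A1 and TIPARP, from 0.56 against 0.20 for AHRR to 5.41 against 3.81 for CYP1A1, and the intervals of ARNT and CYP1B1 overlap between the lines.

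Between the lines, limma put 1 of 6 members higher in H460 (ARNT) and 1 lower (TIPARP) without treatment, against 27.1% and 30.4% of all genes, and after ISP-I 5 higher and 0 lower, against 25.1% and 45.9%. The 5 include AHRR, which passed the filter only through the treated groups, so this count too is a description. Ordered by mean level, AHR, AHRR and CYP1A1 had the same sequence of groups: treated H460, treated A549, H460 controls and A549 controls, with overlap between the control groups only. For TIPARP the treated groups came first as well, the A549 controls were above the H460 controls, and no neighbours overlapped. For CYP1B1 every pair of neighbours in the order overlapped, from 27.2 ± 6.06 FPKM in treated H460 to 21.7 ± 3.37 FPKM in A549 controls (SD, n = 3). ARNT ran from 9.65 ± 0.470 FPKM in H460 controls through 7.97 ± 1.31 in treated H460 and 6.47 ± 0.398 in A549 controls to 5.94 ± 0.404 in treated A549, and only the first step was free of overlap.

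The genes whose pattern over the 12 libraries was nearest to a member, by the root mean square difference of centred log2(FPKM + 1) among 10593 genes, were described without a test. Nearest to AHR were PBDC1 (0.0941), ERO1B (0.103) and GNL2 (0.104), against a spread of AHR itself of 0.799. Nearest to TIPARP were FOXO3 (0.114), a forkhead transcription factor, NFKB2 (0.171), an NF-kB subunit, and SIRT1 (0.177), a deacetylase, against 1.14. FOXO3 followed the crossing of the lines, with mean levels of 1.84 and 21.6 FPKM in H460 and 3.46 and 9.30 FPKM in A549 before and after ISP-I. For CYP1A1 the closest were GEM (0.301), a small GTPase, HMOX1 (0.314), heme oxygenase of the oxidative stress response, and ARC (0.393), against 2.40. GEM had mean levels of 1.78 and 92.4 FPKM in H460 and 1.64 and 22.6 FPKM in A549 before and after ISP-I. A distance is to be read against the spread of its own member. For ARNT the nearest were SEC16A (0.0795), HDLBP (0.0798) and GLYR1 (0.0938), against 0.262, and for CYP1B1 MIA3 (0.108), UBL3 (0.115) and ZKSCAN8 (0.116), against 0.216. AHRR was under the 1 FPKM that this measure needed.

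Other cytochrome P450 and PARP genes were counted beside the members after the values were seen. CYP1A1 had the largest rise of the 20 cytochrome P450 genes tested in H460 and of the 27 in A549. The next was CYP27B1, which activates vitamin D, at 1.07 in H460 (SE 0.112), and CYP4F2, a fatty acid hydroxylase, at 1.72 in A549 (SE 0.087). Of the 18 others in H460, 5 were higher and 9 lower at an adjusted p under 0.05, and of the 25 others in A549, again 5 and 9. The 5 higher in A549 include CYP1A2, which passed the filter only through the treated group. TIPARP had the largest rise of the 12 PARP genes tested in both lines, in A549 just ahead of PARP16 (0.98 against 0.88). The largest fall was that of PARP1, the main DNA damage PARP, by -2.49 in H460 (limma adjusted p = 8.20e-07) and -0.70 in A549 (4.83e-05). Among the other 11 PARP genes, H460 had 2 higher and 6 lower, and A549 had 3 higher and 4 lower, beside the same shares of all genes. With scaling by the median of gene ratios the H460 counts were 4 higher and 6 lower PARP genes, and 7 higher and 9 lower of 19 other cytochrome P450 genes. In A549 that scaling gave 3 higher and 5 lower PARP genes. Without library 3 of treated H460 the PARP counts were 3 and 6. Without library 3 of the A549 controls there were 4 higher and 5 lower PARP genes, and 4 higher and 11 lower of 26 other cytochrome P450 genes.

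**Figure D3:**
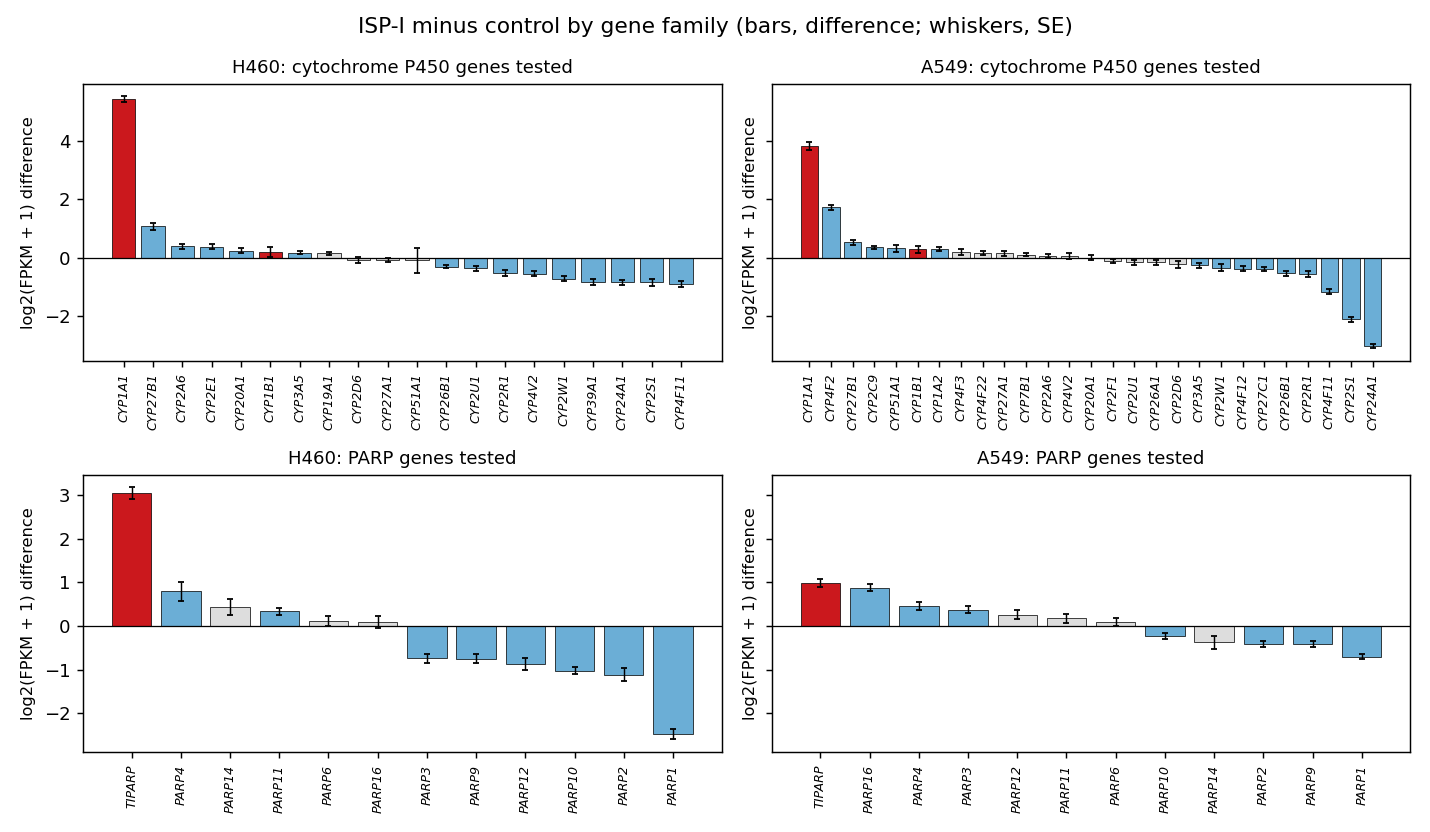
ISP-I minus control difference of log2(FPKM + 1) for the cytochrome P450 genes (top) and PARP genes (bottom) tested in H460 (left) and A549 (right), with SE whiskers. Red bars are members of the axis, whether they passed or not (CYP1B1 did not), blue bars are other genes with an adjusted p under 0.05 and grey bars are those above it. CYP1A1 and TIPARP stand first in every panel, and TIPARP is 0.98 in A549 beside 0.88 for PARP16.

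Of the genes of 5 lists around the receptor, the chaperones and turnover factors were mostly lower or not passed. In H460, 4 of 8 were lower and 0 higher, with a list median of -0.62, and in A549 3 of 8 were lower and 0 higher, with a median of -0.21. Of all genes tested, 41.5% were lower and 27.6% higher in H460, and 27% were lower and 30.5% higher in A549. The list counts were not tested against these shares. TBL3 (-0.97, limma adjusted p = 0.000103) and DDB1 (-0.60, 0.00202), parts of ubiquitin ligase complexes, and PTGES3 (-0.67, 0.00495), the p23 cochaperone, were the H460 falls with the smallest p, and STUB1, the CHIP ubiquitin ligase, fell too (-0.90, 0.00741). HSP90AB1, the HSP90 chaperone that holds the unbound receptor, led in A549 (-0.48, limma adjusted p = 0.00119), where DDB1 (-0.27, 0.0171) and PTGES3 (-0.22, 0.0398) were lower too. Leaving out a library lost the A549 call of PTGES3 in 4 of 6 fits and that of DDB1 in 2 of 6. With all 12 libraries in the fit, PTGES3 did not pass in A549 (limma adjusted p = 0.153). PTGES3 did not pass after scaling by the median of gene ratios in H460 (0.0698) or A549 (0.0538), and the H460 count became 1 higher and 3 lower. Without library 3 of treated H460 the count was 1 higher and 5 lower, and without library 3 of the A549 controls also 1 higher and 5 lower. In this list and the lists that follow, each count of 0 in a line was also 0 at an unadjusted p under 0.05 in limma.

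Of the other bHLH-PAS factors, the family of AHR and ARNT, 7 were tested. Beside 41.5% of all genes lower and 27.6% higher in H460, 0 of the 7 were lower and 2 were higher. They were ARNTL (BMAL1 of the circadian clock), at 2.11 ± 0.283 FPKM in controls and 6.29 ± 0.989 after ISP-I (SD, n = 3, difference 1.22, limma adjusted p = 6.85e-05), and HIF1A, the hypoxia factor that also pairs with ARNT, at 21.9 ± 4.14 and 66.7 ± 27.4 FPKM (1.5, 0.00154). The treated H460 libraries were spread widely for HIF1A, at 64.4, 95.2 and 40.5 FPKM. In A549, ARNTL was higher (0.51, limma adjusted p = 0.000799) and 3 of 7 were lower, EPAS1 (-0.37, 0.00127), ARNT2 (-0.41, 0.00386) and SIM2 (-0.29, 0.0313). Of all genes in A549, 30.5% were higher and 27% lower. ARNT2, the paralogue of ARNT, was at 9.09 FPKM in A549 controls and at 0.111 FPKM in H460 controls. After scaling by the median of gene ratios, the H460 counts of this list were 3 higher and 0 lower.

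Coactivators and corepressors moved in both directions in H460, with 3 of 8 higher and 3 lower, beside 27.6% and 41.5% of all genes. NCOA3, a steroid receptor coactivator, rose from 9.91 ± 0.569 to 36.5 ± 9.95 FPKM (difference 1.75, limma adjusted p = 5.58e-05), and NRIP1, a corepressor, from 1.33 ± 0.387 to 9.65 ± 4.79 FPKM (2.11, 0.000268). EP300, a histone acetyltransferase, was the third gene higher in H460 (0.91, limma adjusted p = 0.00232), and NCOA1 (-0.56, 0.0294), NCOA2 (-0.71, 0.00287) and NCOR1 (-0.67, 0.0217) were lower. In A549, 1 of 8 was higher, EP300 (0.24, limma adjusted p = 0.0452), and 0 were lower, beside 30.5% and 27% of all genes. The EP300 call in A549 was lost in 4 of the 6 fits that left out a library, without a filter (limma adjusted p = 0.0559) and with all 12 libraries in the fit (0.224). Without library 3 of the A549 controls 4 of 8 were lower, and without library 3 of treated H460 the counts were 4 higher and 3 lower. With scaling by the median of gene ratios the H460 counts were 4 higher and 1 lower.

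Enzymes that make or remove tryptophan-derived ligands gave 1 higher and 2 lower of 7 tested in H460, and 4 higher and 0 lower of 7 in A549. For H460, a rise was found for 27.6% of all genes tested and a fall for 41.5%. For A549, the share with a rise was 30.5% and that with a fall 27%. No test compared this list with those shares. IDO1 and IDO2, which start the kynurenine route in immune cells, were under the filter, with at most 7 reads summed over a group. TDO2, which starts it in liver, fell in H460 from 1.64 to 0.370 FPKM (-0.95, limma adjusted p = 3.12e-05). KYNU, which cleaves kynurenine, rose in both lines, in H460 from 6.74 ± 1.3 to 24.0 ± 3.70 FPKM (1.69, 2.62e-05) and from 8.75 ± 1.59 to 15.2 ± 0.763 FPKM in A549 (0.75, 0.00101). KYAT3 (0.48, limma adjusted p = 0.00188) and AFMID (0.49, 0.0022) were also higher in A549, as was IL4I1 at a low level (0.25, 0.0358), and KYAT1 was lower in H460 at a low level (-0.16, 0.0448), a call lost in 5 of the 6 fits that left out a library. After scaling by the median of gene ratios, 3 were higher and 1 lower in H460. Without library 3 of treated H460 the counts were 2 and 2, and without library 3 of the A549 controls 3 and 0.

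Further genes known as inducible by AHR moved in both directions. Of those tested, 4 of 11 were higher and 5 lower in H460, and 2 of 12 higher and 8 lower in A549, beside 27.6% and 41.5% of all genes in H460 and 30.5% and 27% in A549, with list medians of 0.09 and -0.31. ALDH3A1, an aldehyde dehydrogenase that is a textbook target in liver, fell from 338.7 ± 21.2 to 87.2 ± 19.8 FPKM in H460 (-1.97, limma adjusted p = 2.26e-05) and from 511.6 ± 44.1 to 184.5 ± 0.983 FPKM in A549 (-1.46, 4.44e-06). SLC7A5, an amino acid transporter, fell in both lines (-1.36, limma adjusted p = 3.10e-05, and -1.34, 5.32e-06). CYB5A, an electron donor to cytochrome P450 enzymes, fell in H460 (-1.66, 6.13e-06) and A549 (-1.02, 0.000111), and CYP2S1 fell in A549 from 34.8 ± 3.46 to 7.21 ± 0.133 FPKM (-2.12, 8.11e-07). As a ratio of group means, CYP2S1 fell to 0.207 of control in A549 and to 0.230 in H460. In H460, CYP2S1 (-0.85, limma adjusted p = 0.000333) and NQO1 (-0.82, 0.00287), a quinone reductase that also fell in A549 (-0.39, 0.0113), were lower too, and the 4 higher genes were NFE2L2 (1.91, 0.000228), SERPINB2 (1.54, 0.00138), EREG (0.75, 6.02e-05) and IL1B (0.62, 0.000885). EREG, at 0.0549 FPKM in the H460 controls, passed the filter only through the treated group. The 2 higher genes in A549 were POR, the reductase that supplies cytochrome P450 enzymes (0.89, limma adjusted p = 1.99e-05), and CYP1A2 (0.29, 0.014), whose fitted difference is no fold because its controls had no reads. Like EREG in H460, CYP1A2 passed the filter in A549 only through the treated group. The counts of higher genes include them, so these counts are a description of the list and no support for it. ABCG2 was also lower in A549 (-0.63, limma adjusted p = 0.000758). The 8 lower in A549 include UGT1A1 (-0.19, 0.0278) and UGT1A6 (-0.23, 0.0232). These share exons, held 2 to 24 reads per A549 library and are uncertain. With scaling by the median of gene ratios the H460 counts were 5 higher and 5 lower of 11.

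**Figure D4:**
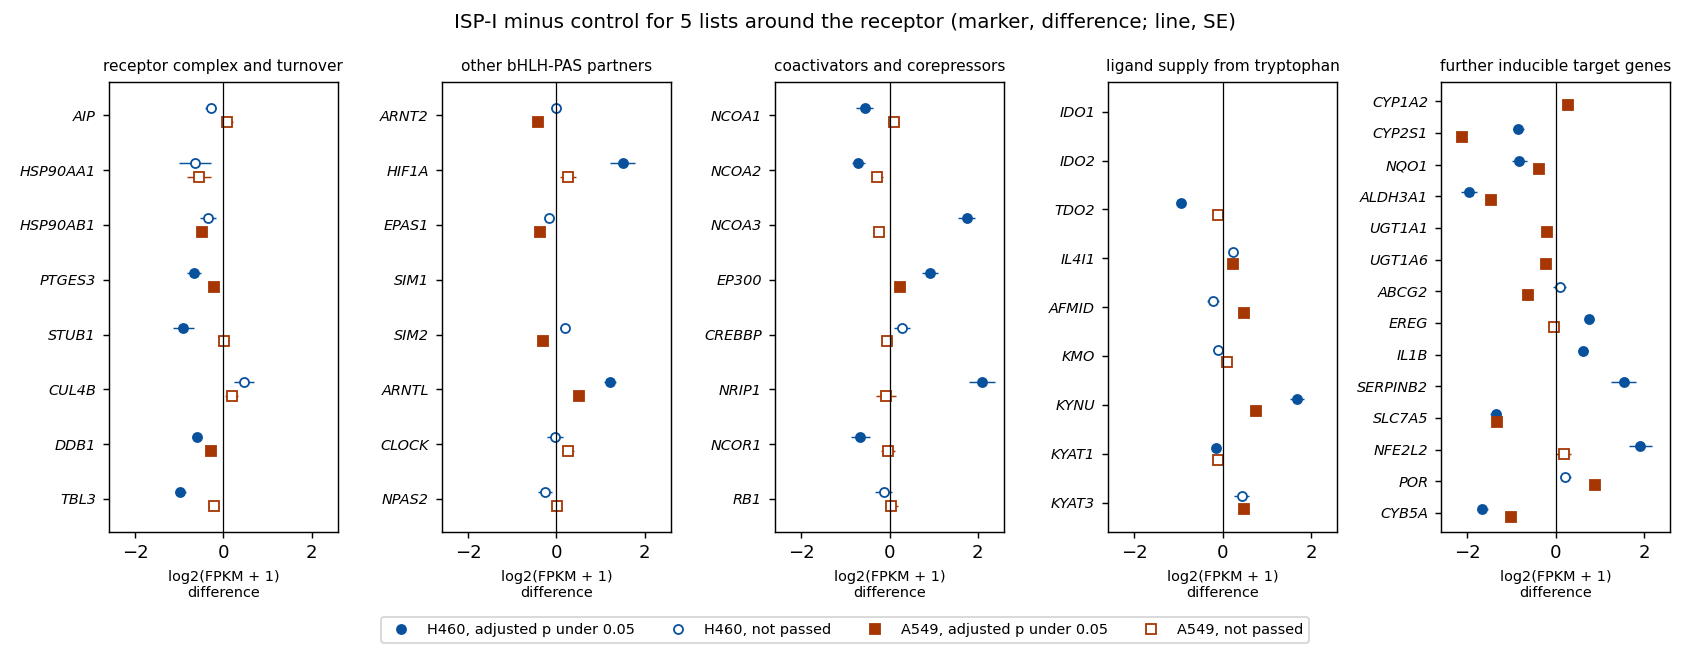
ISP-I minus control difference of log2(FPKM + 1), with SE, for the genes of the 5 lists in H460 (circles) and A549 (squares). Filled markers have a limma adjusted p under 0.05 and genes without a marker were under the filter in that line. ALDH3A1 and SLC7A5 lie to the left in both lines, from -1.34 to -1.97, and KYNU to the right, at 1.69 and 0.75.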

How the data were processed

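Paired-end reads were filtered with FastQC, mapped to hg38 with HISAT2 and counted with HTSeq 0.9.1, per the study's methods and the submitters' processing notes. The authors deposited FPKM, and a column of gene lengths in bases is in another unit. The annotation release and the strand setting are not given in the sources used here. Of the lines of the table, 4 were broken and left out.

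Columns name the line and treatment, which set the groups, and a library's number is its place within its group. FPKM times length gave whole reads (within 0.01) for 99.899% to 99.994% of the values in each library. Ratios of group means were taken on FPKM. Within each line, log2(FPKM + 1) was compared with limma 3.58.1 (R 4.3.3) with a mean-variance trend where the mean reached 0.1 FPKM, with Benjamini-Hochberg adjustment over all genes. A gene was called at a fold over 2 and an adjusted p under 0.05, and counts at any fold are given beside it. The interaction and the comparisons of lines used all 12 libraries. The fit was checked on simulated counts. Python 3.11.15 with pandas 2.3.3, numpy 2.4.6 and matplotlib 3.10.9 read the tables and drew the plots.

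The members and lists were chosen with earlier results of these data known, and 1 listed gene is not reported here. Named were all 6 members, in each line and list up to 3 genes with the smallest p among those with an adjusted p under 0.05, and the 3 genes most like each member whose mean reached 1 FPKM. Gene families, and the list genes STUB1, SIM2, NCOA1, NCOA2, NCOR1, IL4I1, IDO1, IDO2, CYP1A2, NQO1, NFE2L2, SERPINB2, EREG, IL1B, POR, ABCG2, UGT1A1 and UGT1A6, and CYP2S1 in H460, were named after their values were seen. The alternatives were a minimum mean of 1 FPKM, no filter at all, a pseudocount of 0.1, scaling by median-of-ratios factors, limma voom on recovered reads (10 reads or more in 3 libraries) with library totals or these factors, 1 fit of all 12 libraries, and each library left out in turn. Counts of lists under other scaling and without the libraries that stood apart were added after seeing the data.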

Additional observations from a re-analysis of the deposited data

Results flagged for a closer look

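The response to ISP-I differed between H460 and A549, by the interaction in limma over all 12 libraries, for 17 of the 26 genes screened, 4 of them members of the axis. The 26 were the members and the list genes named for the smallest p of response within a line. They were picked from these same libraries, so the 17 is a description and no support for a difference between the lines. On the log2(FPKM + 1) scale the H460 response minus the A549 response was 1.03 for AHR, 0.37 for AHRR, 1.60 for CYP1A1 and 2.06 for TIPARP. The difference was also positive for ARNTL (0.72), HIF1A (1.23), NCOA3 (1.996), NRIP1 (2.18), EP300 (0.67) and KYNU (0.95). It was 0.41 for ARNT2 and 1.27 for CYP2S1, whose control levels were 0.111 and 1.35 FPKM in H460 beside 9.09 and 34.8 FPKM in A549. As ratios of group means, CYP2S1 fell nearly alike, to 0.230 of control in H460 and 0.207 in A549. A pseudocount of 1 draws its low H460 values together, so the 1.27 is no difference in fold. The difference of responses was negative for TBL3 (-0.76), PTGES3 (-0.45), TDO2 (-0.84), CYB5A (-0.64) and AFMID (-0.71). Among all genes tested, 18.6% differed in the positive direction and 34.7% in the negative one, so a difference between the lines was common. The H460 libraries after ISP-I were also the most unlike each other, and the part of this in the differences was not tested.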

How the results depend on the processing

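Under the 7 alternatives other than leaving out a library, and under leaving out each library, no result changed direction with a call on either side. CYP1A1, TIPARP and AHR were higher in both lines, and their responses differed between the lines, under every alternative run. With the scaling by median-of-ratios, CYP1B1 passed in H460 (0.46, and 0.48 in limma voom) and between the treated lines (0.37, and 0.38 in limma voom), and ARNT moved from -0.26 to 0.00 in H460. ARNT passed in H460 when all 12 libraries were fitted (-0.26, limma adjusted p = 0.0463). In A549, 3 members (AHRR, CYP1A1 and TIPARP) were called higher rather than 1 with a pseudocount of 0.1, in limma voom with library totals and in limma voom with median-of-ratios factors, since fewer low values are drawn together there, and 1 to 2 were called when a library was left out (2 without control library 1 or ISP-I library 2). AHRR in A549 ranged from 0.16 to 0.25 without a library and was under the filter at a mean of at least 1 FPKM. Its difference between the lines was 0.83 (limma adjusted p = 0.335) and 1.13 (0.194) in limma voom with library totals and with median-of-ratios factors. CYP1A1 differed between the control groups with a pseudocount of 0.1 (0.71, limma adjusted p = 0.0215) and ranged from 0.16 to 0.36 when a library was left out (0.36 without A549 control library 3, limma adjusted p = 0.0210). Among the list genes named by rule, 15 calls were lost by leaving out a library and 6 under other alternatives, and the list genes named after their values were seen were not refitted one by one.

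The call counts of all genes at a fold over 2 moved too: in H460 from 1409 higher and 2047 lower to 1928 and 1441 with the other scaling and to 2322 and 3464 with a pseudocount of 0.1, and in A549 from 575 and 481 to 1336 and 1062 with that pseudocount. The median of all genes in H460 was -0.15 as deposited and 0.02 with median-of-ratios factors. No paired analysis was possible because the treated columns carry the numbers 4 to 6 and cannot be matched to the replicate numbers in the labels. With 2 to 13 reads per control library, depth limits AHRR, and with 9 to 37 reads the size of the CYP1A1 ratio.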
